A study of Mus musculus with 8 samples.

Results

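The genes described here are *Saa1*, *Saa2* and *Saa3* (serum amyloid A), *Serpina3n*, *Serpina3m* and *Serpina3h* (the antichymotrypsin family of protease inhibitors), *Socs3* (suppressor of cytokine signaling 3) and *Stat3* (signal transducer and activator of transcription 3). These 8 genes were chosen by symbol, as acute-phase genes known to respond to STAT3, out of 15859 genes with deposited counts. They were chosen with their levels across these mice in view, so their levels and fold changes are given as a description, without a test. A mean normalized count above 5 was found for 7 of the 8 genes and for 14371 genes in all, and *Saa2* did not reach it.

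RNA was measured in the distal colon of 8 male mice of a mixed BALB/c x 129SvEV background, with 2 mice in each of 4 groups. Untreated wild-type (WT) mice and untreated mice null for *Hsf1* (which encodes heat shock factor 1) formed the day 0 groups. Treated mice of both genotypes were injected with azoxymethane (AOM, a colon carcinogen, 10 mg/kg) and drank, from day 7 and for 5 days, 1.5% dextran sulfate sodium (DSS), an agent that damages the epithelial lining, and they were collected at day 15, 3 days after DSS ended. *Hsf1* was lost throughout the body and not in 1 cell type. Day 15 is the day in the sample titles and in the study's methods, whereas the protocol in the labels ends directly after DSS. The labels give an age of 10 weeks for all mice and an injection at 8 weeks. The comparison asks how the response to AOM–DSS depended on *Hsf1*. Total counts were between 2553348 and 12440257 per mouse, and replicate 2 of both day 0 groups had the smallest libraries. *Hsf1* was between 36.5 and 50.5 CPM (counts scaled to library size, with TMM factors) in WT mice and between 9.09 and 14.0 CPM in *Hsf1* null mice, without overlap. All 11 listed markers of colon epithelium were measured, with a summed level between 13585 and 34085 CPM, and all 6 smooth muscle markers, with a summed level between 2025 and 9456 CPM. In bulk tissue, fewer cells of a type and less RNA per cell cannot be told apart.

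STAT3 is phosphorylated by Janus kinases when cytokines of the IL-6, IL-10 or G-CSF families bind their receptors, and it then enters the nucleus and activates its target genes. SOCS3 is both a target of STAT3 and its feedback inhibitor, since it blocks the kinases at the receptor. Serum amyloid A proteins and SERPINA3 inhibitors are best known as acute-phase proteins that the liver secretes in inflammation, and epithelial, stromal and myeloid cells of inflamed mucosa also make them.

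The 3 *Saa* genes lie together on chromosome 7, the *Serpina3* genes in a cluster on chromosome 12, and *Socs3* and *Stat3* apart from each other on chromosome 11 (GENCODE M21, GRCm38, which is mm10). *Saa3* (ENSMUSG00000040026, chr7:46711998-46715700, minus strand) lies 24.8 kb from *Saa1* (ENSMUSG00000074115, chr7:46740497-46742980, minus strand). *Saa2* (ENSMUSG00000057465, chr7:46751790-46754313, plus strand) lies 8.8 kb beyond *Saa1*. *Serpina3h* (ENSMUSG00000041449, chr12:104247905-104253669), *Serpina3m* (ENSMUSG00000079012, chr12:104338486-104394257) and *Serpina3n* (ENSMUSG00000021091, chr12:104406729-104414329) follow each other on the plus strand. *Serpina3h* is annotated as a transcribed pseudogene, and the annotated span of *Serpina3m* contains *Serpina3k*. *Socs3* (ENSMUSG00000053113) is at chr11:117966079-117970047 and *Stat3* (ENSMUSG00000004040) at chr11:100885098-100939540, both on the minus strand.

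Promoter sequence was matched by symbol for 6 of the 8 genes, and *Serpina3m* and *Serpina3h* had no entry. The 250 bases before the RefSeq start (GRCm38.p6) are shown 5′ to 3′ for 5 genes, because *Saa1*, *Saa2* and *Saa3* differed widely in level and *Saa3*, *Serpina3n* and *Socs3* were high in treated WT mice. The windows are chr7:46715677-46715926 (minus strand) for *Saa3*, chr7:46742981-46743230 (minus strand) for *Saa1*, chr7:46751583-46751832 (plus strand) for *Saa2*, chr12:104406458-104406707 (plus strand) for *Serpina3n* and chr11:117969367-117969616 (minus strand) for *Socs3*. The *Socs3* window lies wholly inside the GENCODE span of *Socs3* given above, so the bases before its GENCODE 5′ end were not searched. The *Saa2* and *Saa3* windows overlap the GENCODE spans of their genes in part. Capitals mark matches to 5 motifs searched on both strands: a STAT site, 2 arrangements of the heat shock element that HSF1 binds, a C/EBP site and an NF-kappaB site.
Saa3: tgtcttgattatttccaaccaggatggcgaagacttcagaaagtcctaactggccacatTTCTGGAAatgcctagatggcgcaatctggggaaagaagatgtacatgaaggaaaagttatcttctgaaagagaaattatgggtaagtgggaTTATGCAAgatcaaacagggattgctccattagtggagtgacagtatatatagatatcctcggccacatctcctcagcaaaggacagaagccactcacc
Saa1: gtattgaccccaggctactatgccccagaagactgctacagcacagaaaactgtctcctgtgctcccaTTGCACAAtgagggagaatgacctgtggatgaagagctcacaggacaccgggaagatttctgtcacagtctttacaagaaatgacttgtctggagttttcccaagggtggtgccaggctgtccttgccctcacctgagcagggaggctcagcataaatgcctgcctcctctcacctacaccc
Saa2: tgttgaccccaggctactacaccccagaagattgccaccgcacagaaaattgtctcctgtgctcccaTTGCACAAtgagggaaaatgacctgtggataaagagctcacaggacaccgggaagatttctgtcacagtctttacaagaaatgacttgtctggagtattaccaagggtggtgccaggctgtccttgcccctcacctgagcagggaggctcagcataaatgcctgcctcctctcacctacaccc
Serpina3n: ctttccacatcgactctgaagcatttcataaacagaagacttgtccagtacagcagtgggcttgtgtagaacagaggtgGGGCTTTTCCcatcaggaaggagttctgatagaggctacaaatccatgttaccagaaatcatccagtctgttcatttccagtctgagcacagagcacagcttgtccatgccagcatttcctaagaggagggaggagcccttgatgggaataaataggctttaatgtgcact
Socs3: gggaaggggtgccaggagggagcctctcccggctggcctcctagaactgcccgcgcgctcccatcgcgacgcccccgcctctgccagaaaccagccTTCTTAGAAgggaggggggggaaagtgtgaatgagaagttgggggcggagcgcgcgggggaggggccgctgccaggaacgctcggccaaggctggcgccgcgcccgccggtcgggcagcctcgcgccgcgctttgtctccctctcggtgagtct

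Among the 6 promoters of the members, the STAT site TTCNNNGAA was found once, in *Socs3* (TTCTTAGAA, 154 to 146 bases before the RefSeq start). That match lies inside the GENCODE span of *Socs3*, and 7.01% of 32817 promoters of the same length hold the site. The tail-to-tail heat shock element TTCNNGAA was found in *Saa3* alone of the 6 promoters (TTCTGGAA, 191 to 184 bases before the start), against 7.16% of all promoters. The head-to-head arrangement GAANNTTC was found in none of the 6, against 6.69% of all promoters. The C/EBP site TTGCNNAA (TTNNGCAA on the other strand, in 9.57% of all promoters) was found in *Saa1*, *Saa2* and *Saa3*. The NF-kappaB site GGGNNNTTCC (GGAANNNCCC on the other strand, in 4.65% of all promoters) was found in *Serpina3n*, and *Stat3* held none of the 5 motifs. No matches overlapped each other in these 6 promoters. The same search of the other *Serpina3* genes with a promoter entry found the STAT site in *Serpina3g* (TTCCCAGAA, 33 to 25 bases before the start, with an NF-kappaB site 85 to 76 bases before it) and in *Serpina3f* (TTCCTAGAA, 121 to 113 bases before the first of its 2 RefSeq starts, in a window that also held C/EBP sites). The *Saa1* and *Saa2* promoters were 94.8% identical over 251 aligned columns, and those of *Saa1* and *Saa3* were 52.2% identical.

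In treated WT mice, *Saa3*, *Serpina3n*, *Serpina3m*, *Serpina3h*, *Socs3* and *Stat3* were all higher than in treated *Hsf1* null mice, without overlap between the genotypes, and *Saa1* was lower, also without overlap. Across all tested genes at day 15, WT mice were higher without overlap for 28.6% of genes and lower without overlap for 26.3%. For the same 6 genes, both treated WT mice were above all 6 other mice, as they were for 12.1% of all tested genes. The median log2 fold change of WT over *Hsf1* null at day 15 was 3.33 over the 7 tested members and 0.03 over all tested genes. These values chose the members, so nothing was read from the counts.

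**Figure D1:**
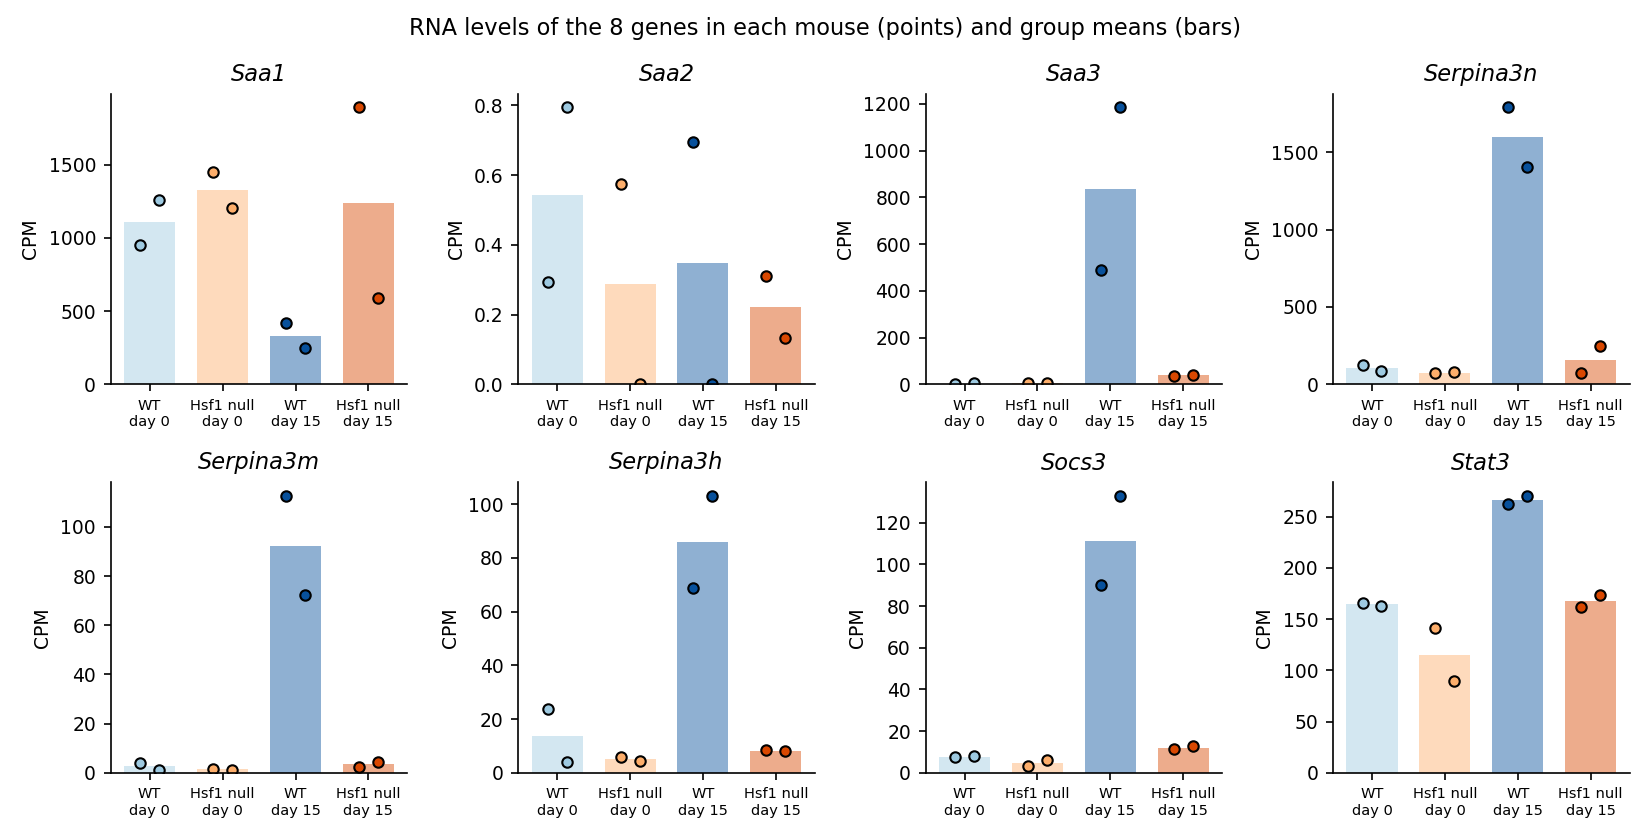
Level of each of the 8 genes in CPM (vertical axis, from 0, with a separate scale for each gene) in every mouse (points), with group means (bars) for untreated (day 0) and treated (day 15) mice of each genotype. *Saa3* reached 490 and 1185 CPM in the treated WT mice and at most 40.4 CPM in the other 6, whereas *Saa1* was lowest in the treated WT mice and *Saa2* was near 0 in all groups.

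*Stat3* itself was the most even of the 7 tested genes. Untreated WT mice had 165.7 and 163 CPM and untreated *Hsf1* null mice 141 and 89.5 CPM. After treatment WT mice had 262 and 270.4 CPM and *Hsf1* null mice 162 and 173 CPM. The treated WT mice were the highest 2 of the 8, and the treated *Hsf1* null mice lay close to untreated WT mice. On the log2 scale WT exceeded *Hsf1* null by 0.67 (SE 0.25) at day 15 and by 0.51 (SE 0.26) at day 0. The day 0 value was 0.88 without replicate 1 of the untreated *Hsf1* null mice and 0.22 without the 2 smallest libraries. From day 0 to day 15, *Stat3* differed by 0.70 (SE 0.26) in WT mice and by 0.53 (SE 0.26) in *Hsf1* null mice, where the value was 0.91 and 0.23 under the same exclusions.

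*Socs3*, the feedback inhibitor, differed far more than *Stat3*. Untreated WT mice had 7.35 and 7.94 CPM and untreated *Hsf1* null mice 3.37 and 6.11 CPM. After treatment WT mice had 89.9 and 133 CPM and *Hsf1* null mice 11.5 and 12.7 CPM. Both groups of treated mice were above both groups of untreated mice, and the treated WT mice stood apart from all others. *Socs3* was 9.19-fold higher in WT than in *Hsf1* null mice at day 15 (log2 fold change 3.20, SE 0.34). From day 0 to day 15 it was 14.6-fold higher in WT mice and 2.76-fold higher in *Hsf1* null mice (log2 fold changes 3.87, SE 0.36, and 1.47, SE 0.36).

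*Saa3*, the serum amyloid that macrophages, epithelium and other tissues outside the liver are known to make, had the largest ratio of highest to lowest level among the 7 tested genes. It was found at 1.76 and 3.97 CPM in untreated WT mice and at 5.67 and 5.39 CPM in untreated null mice, so the latter were slightly higher, without overlap (log2 difference of WT over null -1.19, SE 0.56, and -0.49 without replicate 1 of the untreated WT mice). Treatment brought levels of 490 and 1185 CPM in WT mice and of 35.2 and 40.4 CPM in *Hsf1* null mice. Treated mice of both genotypes were above all untreated mice, and the WT mice were highest. *Saa3* was 22.1-fold higher in WT than in *Hsf1* null mice at day 15 (log2 fold change 4.47, SE 0.45; 3.69 without replicate 2 of the treated WT mice). Against its own untreated mice it was 342-fold higher in WT (log2 fold change 8.42, SE 0.58; 7.64 without that mouse) and 6.78-fold higher in *Hsf1* null mice (log2 fold change 2.76, SE 0.46).

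*Saa1* went the other way. Without treatment it was abundant in both genotypes, at 952 and 1258 CPM in WT mice and 1452 and 1207 CPM in *Hsf1* null mice. With treatment the levels were 417 and 248 CPM in WT mice and 1892 and 586 CPM in *Hsf1* null mice. The treated WT mice were the lowest of the 8, and the treated *Hsf1* null mice differed from each other more widely than the mice of any other group. *Saa1* was 3.73-fold lower in WT than in *Hsf1* null mice at day 15 (log2 difference -1.90, SE 0.51). That difference was -0.82 without replicate 1 and -2.51 without replicate 2 of the treated *Hsf1* null mice. In WT mice *Saa1* was lower at day 15 than at day 0 (log2 difference -1.73, SE 0.51). The corresponding value in *Hsf1* null mice was -0.10 (SE 0.49), and it was -1.18 without replicate 1 and 0.51 without replicate 2 at day 15.

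*Saa2*, a circulating serum amyloid whose sequence is close to that of *Saa1*, was counted between 0 and 8 times per mouse and had no group without a library at or below 3 counts, so no fold change was computed. Of the 50-base windows of the *Saa1* transcript, 9.11% were also found in *Saa2*, and 10.7% in any other listed gene. How reads that match both genes were counted is not given in the sources used here, and the split between *Saa1* and *Saa2* is uncertain. For *Saa3* the share of such windows was 1.78%.

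Per kilobase of transcript, the serum amyloid genes exchanged places between groups. In the 4 untreated mice *Saa1* was between 1564 and 2384 CPM per kb and *Saa3* between 3.18 and 10.2 CPM per kb, so that the level of *Saa1* was between 204 and 492 times that of *Saa3*. In the treated *Hsf1* null mice the level of *Saa1* was 49.0 and 13.2 times that of *Saa3*. In the treated WT mice *Saa3* was at 882 and 2135 CPM per kb and *Saa1* at 684 and 408 CPM per kb, and the level of *Saa3* was 1.29 and 5.24 times that of *Saa1*. *Saa3* exceeded *Saa1* in both treated WT mice and in none of the other 6.

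*Serpina3n*, a secreted inhibitor of neutrophil serine proteases in the mouse, was the most abundant *Serpina3* gene in every mouse. The untreated WT mice measured 126 and 87.3 CPM and the untreated *Hsf1* null mice 70.7 and 77.6 CPM. The treated WT mice measured 1792 and 1406 CPM and the treated *Hsf1* null mice 74.1 and 244 CPM. Only 1 of the 2 treated *Hsf1* null mice was above the untreated range, and the treated WT mice were above all others. *Serpina3n* was 10.03-fold higher in WT than in *Hsf1* null mice at day 15 (log2 fold change 3.33, SE 0.50), and the log2 value was 2.70 without replicate 1 and 4.43 without replicate 2 of the treated *Hsf1* null mice. In WT mice it was 14.9-fold higher at day 15 than at day 0 (log2 fold change 3.90, SE 0.52). For the *Hsf1* null mice the log2 change was 1.11 (SE 0.47), but 0.0021 without replicate 2 and 1.73 without replicate 1 at day 15.

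*Serpina3m*, a neighbor from the same inhibitor family, was nearly silent outside the treated WT mice. It was counted 41 and 3 times in untreated WT mice, 21 and 3 times in untreated *Hsf1* null mice, 1295 and 684 times in treated WT mice and 15 and 33 times in treated *Hsf1* null mice. These counts correspond to between 1.08 and 4.02 CPM in untreated mice, 113 and 72.2 CPM in treated WT mice and 2.33 and 4.41 CPM in treated *Hsf1* null mice. *Serpina3m* was 27.1-fold higher in WT than in *Hsf1* null mice at day 15 (log2 fold change 4.76, SE 0.50). The change from day 0 was 30.2-fold in WT mice (log2 fold change 4.92, SE 0.52), and its log2 value was 6.26 without replicate 1 of the untreated WT mice. The log2 change in *Hsf1* null mice was 1.14 (SE 0.56), or 1.64 without replicate 1 of the untreated *Hsf1* null mice and 0.35 with all counts thinned to the smallest library.

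*Serpina3h*, the annotated pseudogene, stood at 23.6 and 3.97 CPM in untreated WT mice and at 5.99 and 4.31 CPM in untreated *Hsf1* null mice. After treatment the WT mice had 68.6 and 103 CPM and the *Hsf1* null mice 8.38 and 8.02 CPM. Replicate 1 of the untreated WT mice was above both treated *Hsf1* null mice and replicate 2 was below all other mice. *Serpina3h* was 10.5-fold higher in WT than in *Hsf1* null mice at day 15 (log2 fold change 3.39, SE 0.60). Its log2 change from day 0 to day 15 in WT mice was 2.52 (SE 0.58), or 4.43 without replicate 1 at day 0 and 1.86 without the 2 smallest libraries. The share of 50-base windows found in another listed gene was 22.7% for *Serpina3h*, 19.1% for *Serpina3m* and 5.71% for *Serpina3n*, so the division of reads among these paralogs is uncertain, and for *Serpina3m* most of the shared windows lay in the overlapping *Serpina3k*. *Socs3* and *Stat3* had no shared window.

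**Figure D2:**
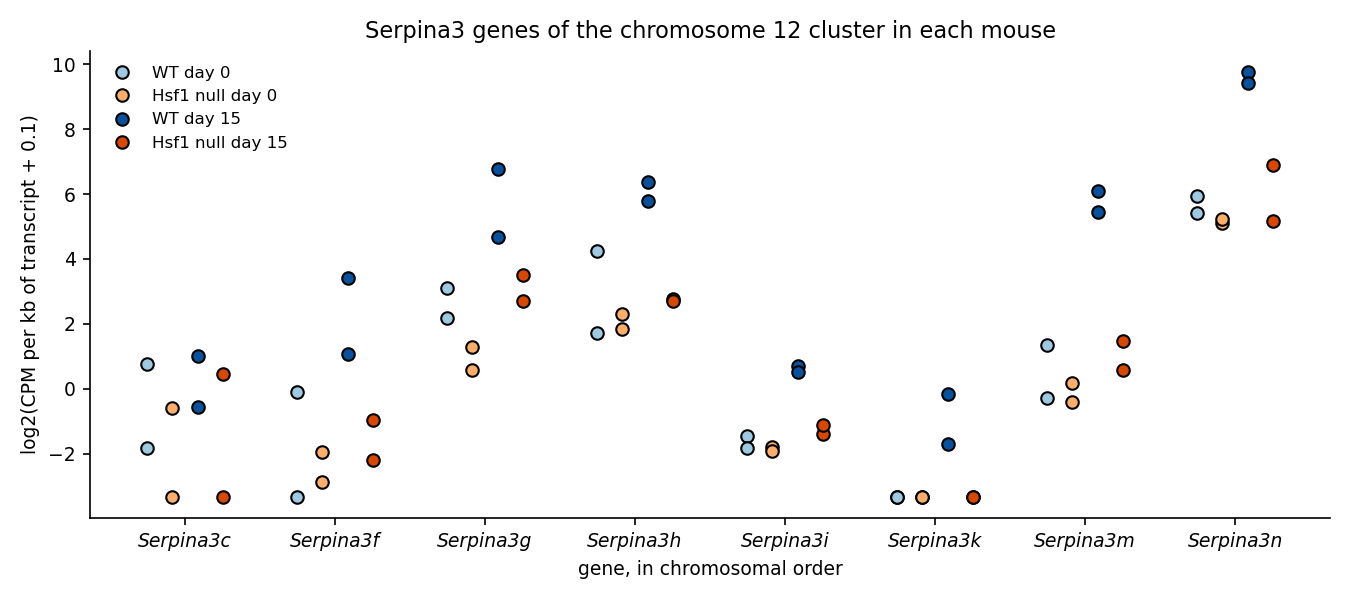
Level of 8 *Serpina3* genes of the chromosome 12 cluster (horizontal axis, in chromosomal order) in every mouse, as log2 of CPM per kilobase of transcript plus 0.1, with points colored by group. The treated WT mice are highest for every gene except *Serpina3c*, and *Serpina3n*, at 868 and 681 CPM per kb in those mice, is above its neighbors in every group.

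The other *Serpina3* genes in the table were given as a whole family. *Serpina3g*, a cytosolic member known from activated T cells and myeloid cells, was at 15.4 and 7.94 CPM in untreated WT mice, 4.19 and 2.51 CPM in untreated *Hsf1* null mice, 45.5 and 195 CPM in treated WT mice and 11.6 and 20.2 CPM in treated *Hsf1* null mice. It was higher in WT than in *Hsf1* null mice at day 15 (log2 fold change 2.91, SE 0.63, edgeR adjusted p = 0.0405) and higher in WT mice at day 15 than at day 0 (log2 fold change 3.30, edgeR adjusted p = 0.0185). *Serpina3f* (log2 fold change 4.55, SE 1.10, edgeR adjusted p = 0.0558), *Serpina3i* (2.13, SE 0.66, 0.099) and *Serpina3c* (0.95, SE 1.29, 0.698) did not pass the threshold between the genotypes at day 15 in edgeR. DESeq2 called *Serpina3f* but not *Serpina3i* or *Serpina3c*. *Serpina3k* was counted 19 and 4 times in treated WT mice and not at all in the other 6, and was too low to test. *Saa4*, *Serpina3a*, *Serpina3b* and *Serpina3j* were not in the table. Calls come from edgeR's quasi-likelihood test with Benjamini-Hochberg adjustment over 14371 genes. A gene was called when its adjusted p was under 0.05 and its log2 fold change was above 1 in size.

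Genes that flank the clusters were also read. Among 6 tested neighbors of the *Saa* genes, 0 were called between the genotypes at day 15 by edgeR or DESeq2, with 2 at an unadjusted p under 0.05 in edgeR. Of these neighbors, *Ldha*, which encodes a lactate dehydrogenase subunit (log2 difference -0.15, SE 0.30, edgeR adjusted p = 0.803), and *Tsg101*, which encodes a sorting protein (-0.03, SE 0.21, edgeR adjusted p = 0.955), were the most abundant. Among 9 tested neighbors of the *Serpina3* genes, *Serpina9*, a serpin known from germinal center B cells, was lower in WT mice (log2 difference -4.46, SE 0.90, edgeR adjusted p = 0.0339), opposite in sign to the *Serpina3* genes beside it. *Serpina9* was the 1 neighbor called by edgeR (1.91% of all tested genes were called lower), and DESeq2 also called *Clmn*. Over the 9 neighbors, 7 log2 differences were above 0 and 2 below.

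The changes from day 0 to day 15 in the 2 genotypes share no mice and are set side by side here. In WT mice, *Saa3*, *Serpina3n*, *Serpina3m*, *Serpina3h*, *Socs3* and *Stat3* were higher at day 15 without overlap (31% of all tested genes) and *Saa1* was lower (31.5%). In *Hsf1* null mice, *Saa3*, *Serpina3m*, *Serpina3h*, *Socs3* and *Stat3* were higher at day 15 without overlap (31% of all tested genes). The median log2 change over the 7 members was 3.87 in WT and 1.11 in *Hsf1* null mice, against 0.00 and 0.05 over all tested genes. The difference between the changes (WT change minus null change) had a median of 2.41 over the members and was 5.66 (SE 0.70) for *Saa3*, 3.78 (SE 0.76) for *Serpina3m*, 2.79 (SE 0.67) for *Serpina3n*, 2.41 (SE 0.50) for *Socs3*, 1.91 (SE 0.83) for *Serpina3h*, 0.16 (SE 0.36) for *Stat3* and -1.63 (SE 0.70) for *Saa1*, all on the log2 scale. Single mice moved most of these differences. Without replicate 2 of the treated WT mice the value for *Saa3* was 4.88. Without replicate 1 of the untreated WT mice the values were 5.12 for *Serpina3m* and 3.81 for *Serpina3h*, and without replicate 2 of that group *Serpina3h* was at 1.26. *Serpina3n* was at 2.18 without replicate 1 and 3.89 without replicate 2 of the treated *Hsf1* null mice, and *Saa1* at -0.55 and -2.24. *Stat3* turned to -0.21 without replicate 1 of the untreated *Hsf1* null mice.

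Before treatment the members differed less between the genotypes. *Serpina3n*, *Socs3* and *Stat3* were higher in WT than in *Hsf1* null mice without overlap (18.4% of all tested genes) and *Saa3* was lower (18.7%). The median log2 difference at day 0 was 0.54 over the members and 0.01 over all tested genes. For *Serpina3h* (1.48, SE 0.61) and *Serpina3m* (0.98, SE 0.58) the day 0 difference turned negative, to -0.43 and -0.36, without replicate 1 of the untreated WT mice, and that of *Serpina3h* was 2.12 without replicate 2.

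**Figure D3:**
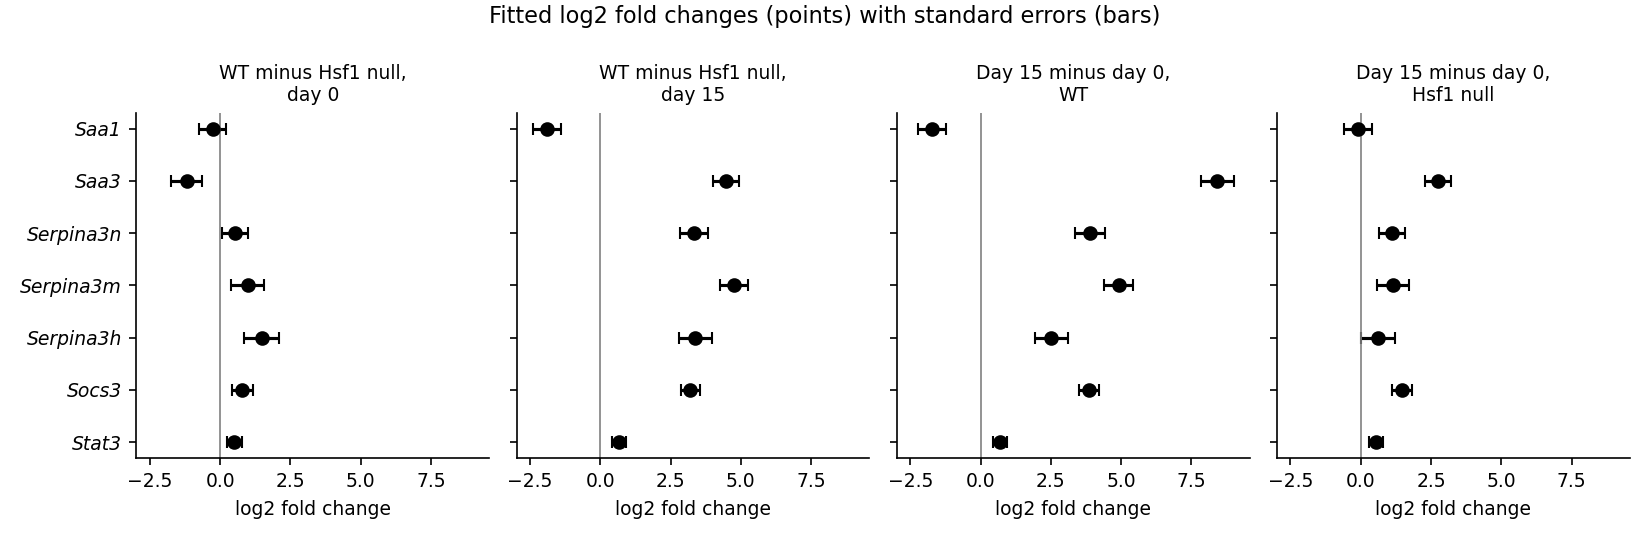
Fitted log2 fold change (horizontal axis, points) with its standard error (bars) of the 7 tested members in 4 comparisons between groups. *Saa3* has the highest value in WT mice from day 0 to day 15 (8.42), *Stat3* lies between 0.51 and 0.70 in all 4 panels, and *Saa1* is below 0 in all 4.

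Levels of different genes can be ordered only per length of transcript. In treated WT mice the order of group means was *Saa3*, *Serpina3n*, *Saa1*, *Serpina3h*, *Stat3*, *Serpina3m*, *Socs3* and *Saa2*, from 1509 to 0.53 CPM per kb. The lower value of *Saa3* (882 CPM per kb) was just above the higher value of *Serpina3n* (868 CPM per kb), and *Serpina3n* and *Saa1* overlapped. *Serpina3h*, *Stat3*, *Serpina3m* and *Socs3*, between 35.2 and 83.2 CPM per kb, also overlapped from each gene to the next. In treated *Hsf1* null mice *Saa1* was highest, at 3107 and 963 CPM per kb, and *Serpina3n* (35.9 and 118 CPM per kb), *Saa3* (63.4 and 72.8 CPM per kb) and *Stat3* (35.9 and 38.4 CPM per kb) followed. *Saa3* was above *Stat3* in both mice, and the values of *Serpina3n* enclosed those of both genes, so its place in the order was not determined.

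For each of 4 members, the tested genes whose profile over the 8 mice lay closest were found by the root mean square (RMS) difference of log2 CPM, each gene centered on its own mean. Closest to *Saa3* were *Reg3b*, an antimicrobial lectin of the epithelium (RMS 0.817), the neutrophil gene *S100a9* (0.876), the neutrophil gene *Retnlg* (0.979), *4732456N10Rik* (1.04) and the protease gene *Prss22* (1.05), where the median over all genes was 3.16. Closest to *Socs3* were the neutrophil chemokine gene *Cxcl2* (0.304), the laminin gene *Lama1* (0.356), *Gml* (0.516), the histamine-forming enzyme gene *Hdc* (0.544) and *Serpina3n* (0.545), with a median of 1.79. Closest to *Serpina3n* were the collagen gene *Col18a1* (0.392), the complement gene *C4b* (0.440), *Lama1* (0.455), the macrophage gene *Chil3* (0.456) and the plasminogen activator gene *Plat* (0.458), with a median of 1.85. Closest to *Stat3* were *Mybbp1a* (0.0960), the actin-binding profilin gene *Pfn1* (0.118), the chromatin remodeler gene *Smarcb1* (0.118), the splicing regulator gene *Ptbp1* (0.124) and the G protein gene *Gnai2* (0.127), with a median of 0.681. Likeness over 8 mice of 4 groups reflects the groups and library depths that all genes share, and it is a description without a test.

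Upstream of STAT3, 7 of the 12 listed cytokine genes in the table were high enough to test. *Il6* was counted 2 and 31 times in the treated WT mice and not at all in the other 6, and was too low to test. *Il22* was not in the table, where every gene has at least 6 counts in some sample. *Csf3*, which encodes G-CSF, was counted 73 and 140 times in treated WT mice, 0 and 1 times in treated *Hsf1* null mice and not at all in untreated mice. It was the 1 gene of 7 tested cytokines called higher in WT than in *Hsf1* null mice at day 15 (edgeR adjusted p = 0.0231). Against untreated WT mice it was at least 14.2-fold higher at day 15, computed against 3 counts per library. *Il11*, a cytokine of the IL-6 family, was counted 188 times in 1 treated WT mouse and at most 12 times in every other mouse (log2 fold change at day 15 3.96, SE 1.32, edgeR adjusted p = 0.116), and *Osm*, which encodes oncostatin M, did not pass the threshold either (1.80, SE 0.85, edgeR adjusted p = 0.237).

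Of 16 tested receptor genes, 0 were called by edgeR between the genotypes at day 15, with 7 at an unadjusted p under 0.05 and 2 (*Lifr* and *Osmr*) called by DESeq2. Their median log2 difference was 0.78, against 0.03 over all tested genes, and 13 of 16 were above 0. *Il6st*, which encodes the shared receptor gp130, was at 117 and 156 CPM in treated WT mice and 65.5 and 89.1 CPM in treated *Hsf1* null mice (log2 difference 0.82, SE 0.30, edgeR adjusted p = 0.147). *Osmr*, the oncostatin M receptor gene, differed by 1.58 (SE 0.59, edgeR adjusted p = 0.147) and *Il6ra*, the IL-6 receptor gene, by 0.78 (SE 0.49, edgeR adjusted p = 0.362) on the log2 scale. The IL-11 receptor gene *Il11ra1* rose from day 0 to day 15 in *Hsf1* null mice (log2 fold change 1.86, SE 0.41, edgeR adjusted p = 0.0232).

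Among 10 tested Janus kinase and other STAT genes, *Stat5b*, a transcription factor that cytokines and growth hormone activate, was the 1 gene called between the genotypes at day 15. Treated WT mice had 62.6 and 67.4 CPM and treated *Hsf1* null mice 27.8 and 31.8 CPM (log2 fold change 1.12, SE 0.23, edgeR adjusted p = 0.0365). *Jak3*, the kinase of the common gamma chain receptors, rose from day 0 to day 15 in both genotypes, by a log2 fold change of 2.14 in WT (edgeR adjusted p = 0.00908) and 1.99 in *Hsf1* null mice (edgeR adjusted p = 0.0138). *Stat4*, which transmits IL-12 signals, rose in WT mice (2.94, edgeR adjusted p = 0.0328) and the kinase gene *Tyk2* in *Hsf1* null mice (1.07, edgeR adjusted p = 0.0245). *Jak1* (log2 difference 0.81, edgeR adjusted p = 0.127) and *Jak2* (0.55, edgeR adjusted p = 0.231), the kinases that gp130 uses, did not pass the threshold between the genotypes at day 15.

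Of 15 tested inhibitor genes other than *Socs3*, 0 were called between the genotypes at day 15 by edgeR or DESeq2, with 2 at an unadjusted p under 0.05 in edgeR. *Socs1*, the relative nearest to *Socs3* in function, was at 11.7 and 43.0 CPM in treated WT mice and 7.29 and 9.63 CPM in treated *Hsf1* null mice (log2 difference 1.69, SE 0.60, edgeR adjusted p = 0.133). *Pias2*, a SUMO ligase gene, fell from day 0 to day 15 in WT (log2 change -1.17, edgeR adjusted p = 0.0335) and in *Hsf1* null mice (-1.04, edgeR adjusted p = 0.0379).

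Of 23 tested genes known as other STAT3 targets, 3 were called higher in WT than in *Hsf1* null mice at day 15, as were 1.25% of all tested genes. From day 0 to day 15 in WT mice 9 rose, as did 3.47% of all tested genes (*Batf*, *Bcl3*, *Birc5*, *Cebpb*, *Icam1*, *Il4ra*, *Lcn2*, *Reg3b* and *Reg3g*). In *Hsf1* null mice 3 rose (*Bcl2l1*, *Bcl3* and *Birc5*, against 5.3% of all tested genes) and *Hif1a*, the hypoxia-inducible factor gene, fell (against 6.48%). *Lcn2*, the siderophore-binding lipocalin 2 gene, was between 2.35 and 3.57 CPM in the untreated mice, at 78.6 and 347 CPM in treated WT mice and at 4.34 and 8.29 CPM in treated *Hsf1* null mice. It was higher in WT mice at day 15 (log2 fold change 5.06, SE 0.67, edgeR adjusted p = 0.0137). *Reg3b*, whose profile lay closest to *Saa3*, was at 67.2 and 180 CPM in treated WT mice, 1.40 and 7.36 CPM in treated *Hsf1* null mice and at most 0.90 CPM in untreated mice (log2 fold change at day 15 4.79, SE 0.75, edgeR adjusted p = 0.0198). *Cebpb*, an acute-phase transcription factor gene, was called (1.42, SE 0.33, edgeR adjusted p = 0.0478). Its relative *Cebpd* was not called by edgeR (1.24, SE 0.33, edgeR adjusted p = 0.0706) but was called by DESeq2, as were *Icam1* and *Il4ra*. *Reg3g*, the neighbor lectin of *Reg3b*, rose in WT mice from day 0 to day 15 (6.76, edgeR adjusted p = 0.0111), and its difference between the genotypes at day 15 did not pass the threshold (3.63, edgeR adjusted p = 0.0543).

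Of 16 tested genes of other positive acute-phase proteins, 3 were called higher in WT than in *Hsf1* null mice at day 15, against 1.25% of all tested genes. From day 0 to day 15 in WT mice 9 rose and 1, *Hamp2*, fell, against 3.47% and 4.27% of all tested genes. Between the genotypes at day 15, 14 of the 16 were higher in WT by their fitted value, with a median log2 difference of 1.17. *Hp*, the hemoglobin-binding haptoglobin gene, was at 90.8 and 98.3 CPM in treated WT mice, 5.12 and 11.6 CPM in treated *Hsf1* null mice and between 1.44 and 7.25 CPM in untreated mice (log2 fold change between the genotypes at day 15 3.49, SE 0.54, edgeR adjusted p = 0.0188). *Lrg1*, a secreted glycoprotein gene, was higher in WT mice at day 15 (3.40, SE 0.61, edgeR adjusted p = 0.0242) and rose from day 0 in WT (4.64, edgeR adjusted p = 0.00739) and in *Hsf1* null mice (2.30, edgeR adjusted p = 0.0446). *Lbp*, the lipopolysaccharide-binding protein gene, was the last of the 3 (1.80, SE 0.40, edgeR adjusted p = 0.0446). *C3*, the central complement gene, reached 1314 and 1441 CPM in treated WT mice and rose from day 0 in them (3.10, edgeR adjusted p = 0.0189). Its difference from *Hsf1* null mice at day 15 did not pass the threshold in edgeR (2.14, edgeR adjusted p = 0.072). DESeq2 did call this difference, and that of *Cp* as well. The metal-binding metallothionein gene *Mt2* had the same pattern in edgeR (3.76 from day 0 in WT mice, edgeR adjusted p = 0.0175, and 2.35 between the genotypes, edgeR adjusted p = 0.0798). DESeq2 did not call *Mt2* between the genotypes.

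Of 4 tested negative acute-phase genes, which fall in the inflamed liver, 0 were called between the genotypes at day 15 by edgeR or DESeq2, with 2 at an unadjusted p under 0.05 in edgeR. *Alb*, the albumin gene, fell from day 0 to day 15 in WT (log2 change -4.81, edgeR adjusted p = 0.00752) and in *Hsf1* null mice (-2.33, edgeR adjusted p = 0.0347), and was at most 7.54 CPM in any mouse. Hepatocyte markers were measured for 6 of 8 listed genes (*Ahsg* and *Fgb* were not in the table). Of the 6, *Cps1* was called between the genotypes at day 15 by edgeR, lower in WT mice (1.91% of all tested genes were). DESeq2 called *Cps1* and *Apob*. Their summed level was 26.7 and 62.4 CPM in treated WT mice, 67.9 and 53.9 CPM in treated *Hsf1* null mice and between 64.2 and 80.5 CPM in untreated mice.

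**Figure D4:**
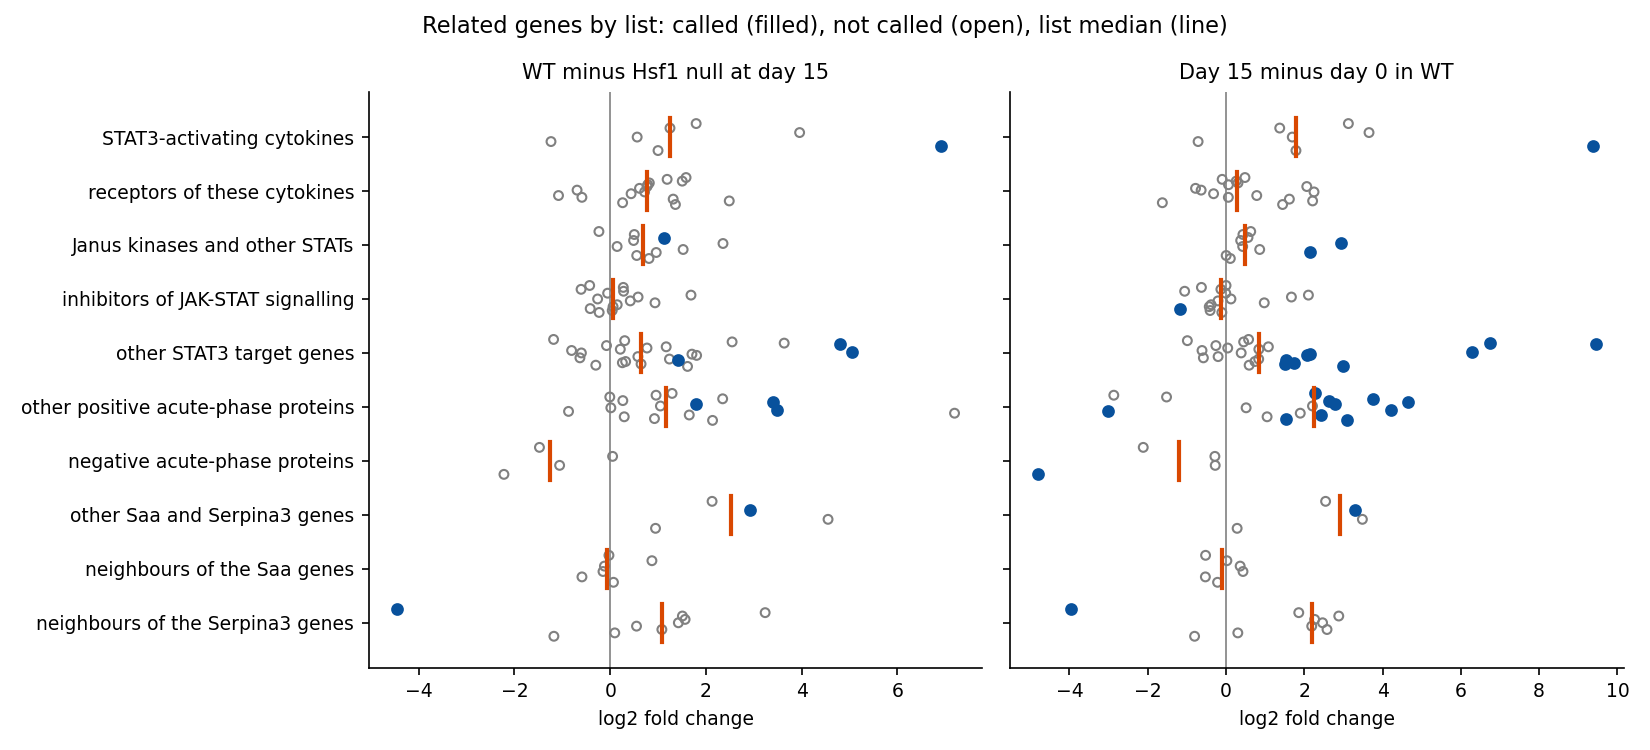
Fitted log2 fold change (horizontal axis) of each tested gene in 10 lists related to STAT3 and the acute phase, for WT over *Hsf1* null mice at day 15 (left) and day 15 over day 0 in WT mice (right), with filled points for called genes, open points for the rest and a line at each list's median. Called genes number 10 of 110 on the left and 26 of 110 on the right, and STAT3 targets and positive acute-phase genes hold most of them.

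Over all lists, 10 of 110 tested related genes (9.09%) were called between the genotypes at day 15, against 3.17% of all tested genes by edgeR's quasi-likelihood test. Of these, 9 were higher in WT mice (1.25% of all tested genes were) and 1, *Serpina9*, was lower (1.91%). From day 0 to day 15, 26 (23.6%) were called in WT mice, against 7.74% of all tested genes, and 22 of these were higher (3.47% of all tested genes) and 4 lower (4.27%). Among *Hsf1* null mice 11 (10%) were called, against 11.8% of all tested genes, and 8 of these were higher (5.3% of all tested genes) and 3 lower (6.48%). *Alb*, *Bcl3*, *Birc5*, *Jak3*, *Lrg1*, *Pias2* and *Steap4* were in both sets of calls, which is 26.9% of the WT calls and 63.6% of the *Hsf1* null calls. Between the genotypes at day 0, 0 were called by edgeR, with 9 at an unadjusted p under 0.05, and 0 by DESeq2. For the difference between the changes, 0 were called by edgeR, with 18 at an unadjusted p under 0.05, and 1, *Lcn2*, by DESeq2 (0.00696% of all tested genes were called by edgeR, all higher), so a larger change in WT than in *Hsf1* null mice was not shown for the other genes. The day 15 calls numbered 0 without replicate 1 or replicate 2 of the untreated *Hsf1* null mice or replicate 1 of the treated *Hsf1* null mice, and 2 without replicate 2 of the treated WT mice. The WT calls numbered 5 without replicate 2 at day 0 and 6 without replicate 2 at day 15, and the *Hsf1* null calls numbered 0 without replicate 2 at day 0 and 3 without either replicate at day 15.

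Markers of other cell types were summed in each mouse, and the lists differed in direction between the groups. Of the neutrophil markers, 8 of 10 were in the table (*Elane* and *Camp* were not). Their summed level was 134 and 519 CPM in treated WT mice, 6.98 and 23.3 CPM in treated *Hsf1* null mice and between 3.95 and 11.6 CPM in untreated mice. At day 15, 5 of 7 tested markers were called higher in WT mice by edgeR (1.25% of all tested genes were) and 4 were called by DESeq2. All 9 macrophage markers were measured, with a summed level of 1229 and 1954 CPM in treated WT mice, 274 and 739 CPM in treated *Hsf1* null mice and between 377 and 988 CPM in untreated mice. At day 15, 2 of 9 were called higher in WT mice by edgeR (1.25% of all tested genes were) and 4 (*C1qa*, *C1qb*, *C1qc* and *Itgam*) were called by DESeq2. All 9 fibroblast markers summed to 2494 and 2471 CPM in treated WT mice, 488 and 1519 CPM in treated *Hsf1* null mice and between 860 and 2629 CPM in untreated mice, and 0 were called by edgeR between the genotypes at day 15, with 3 at an unadjusted p under 0.05 and 2 (*Col3a1* and *Dcn*) called by DESeq2. The 2 treated *Hsf1* null mice differed from each other in every marker list. The mouse with the higher *Serpina3n* and lower *Saa1* level had the higher neutrophil, macrophage, fibroblast, smooth muscle and adipocyte sums. It had the lower epithelial, mesothelial, pancreatic acinar and hepatocyte sums. Smooth muscle markers summed to 3462 and 2025 CPM in treated WT mice and between 5013 and 9456 CPM in the other 6. In WT mice 5 of 6 were called lower at day 15 than at day 0 by edgeR (4.27% of all tested genes were). Between the genotypes at day 15, 0 were called by edgeR, with 5 at an unadjusted p under 0.05 and 2 (*Actg2* and *Cnn1*) called by DESeq2. Adipocyte markers (8 of 8 in the table) summed to between 35.9 and 248 CPM in the 8 mice, with the groups overlapping. Pancreatic acinar markers (3 of 6, without *Prss2*, *Cel* and *Pnlip*) summed to 68.9 and 30.1 CPM in treated WT mice and to between 111 and 288 CPM in the other 6. *Cela1*, the 1 tested marker of that list, was called lower at day 15 than at day 0 in WT mice (4.27% of all tested genes were). Mesothelial markers (5 of 5 in the table, 3 of them tested) include *Krt19*, which is also on the epithelial list. They summed to 6262 and 6756 CPM in treated WT mice, 9629 and 8720 CPM in treated *Hsf1* null mice and between 2424 and 5689 CPM in untreated mice. Both treated groups were above all untreated mice in this sum. Because of *Krt19* the sum does not separate mesothelium from epithelium. From day 0 to day 15 in *Hsf1* null mice, 0 of the 3 were called by edgeR and *Krt19* alone by DESeq2. The epithelial markers summed to 17206 and 20492 CPM in treated WT mice, 34085 and 27584 CPM in treated *Hsf1* null mice and between 13585 and 22489 CPM in untreated mice. The treated *Hsf1* null mice were the highest 2 of the 8 in this sum, and the one with the higher *Saa1* level had the higher sum. Of the 11 epithelial markers, 0 were called by edgeR between the genotypes at day 15, with 1 at an unadjusted p under 0.05 and 1 (*Muc2*) called by DESeq2. The part of these cell types in the results was not tested.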

How the data were processed

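RNA-seq of poly(A) RNA from the distal colon of 8 mice was analyzed. Per the labels, the authors aligned reads to mm10 with STAR and used DESeq2. They deposited raw counts per gene symbol, which were used here, and a score per gene (each count divided by the size factor of its sample), which was not used. The counting program and annotation are not given in the sources used here. Every deposited gene has at least 6 counts in some sample.

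The fits used edgeR 4.0.16 in R 4.3.3, with TMM, 1 model of 4 groups fitted to 8 samples (prior degrees of freedom 5.97), quasi-likelihood tests of genes with a mean normalized count above 5, and Benjamini-Hochberg adjustment over 14371 genes. The SE of a log2 fold change was taken from its F statistic. CPM used TMM-adjusted library sizes, and levels per kilobase the principal transcript. On simulated counts of these genes for the comparison at day 15, edgeR recovered 72 of 100 genes changed 4-fold and 85 of 100 changed 8-fold, with 16 false calls.

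Genes named are the 8 members, *Hsf1*, the 5 nearest profiles of 4 members, 13 preset pathway genes, up to 4 called genes with the largest fold change per list, and the remaining family members and a few calls chosen after their values were seen. The members and lists were chosen with earlier results of these data known. No label says that mice of a group came from separate litters, and p-values measure the spread between these mice. The alternatives tried are given with their effect.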

Additional observations from a re-analysis of the deposited data

Results flagged for a closer look

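For *Stat5b*, both treated WT mice were above both untreated WT mice (31% of all tested genes were) and both treated *Hsf1* null mice were below both untreated ones (30.3% of all tested genes were). Neither change passed the threshold. Its log2 change was 0.56 (SE 0.23, edgeR adjusted p = 0.151) in WT mice and -0.20 (SE 0.23, edgeR adjusted p = 0.587) in *Hsf1* null mice, where it was smaller than its SE. The difference between the changes was 0.76 on the log2 scale and did not pass the threshold either (edgeR adjusted p = 0.570).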

How the results depend on the processing

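The calls of the comparisons of related genes depended on the tool and on single mice. At day 15 between the genotypes, 10 genes were called by edgeR on all 8 mice, 22 by DESeq2 1.42.0 (all 10 among them), 0 when only the 4 mice compared were fitted and 1 (*Hp*) without the 2 smallest libraries, an alternative chosen after seeing the data. Leaving out 1 mouse at a time gave 0 to 15. From day 0 to day 15 in WT mice, 26 became 17 with only the mice compared, 0 without the 2 smallest libraries and 5 to 33 without 1 mouse. In *Hsf1* null mice, 11 became 29 with DESeq2, 0 without the 2 smallest libraries and 0 to 15 without 1 mouse. Between the genotypes at day 0, 0 became 0 to 1 without 1 mouse. For the difference between the changes, 0 became 1 (*Lcn2*) with DESeq2 and 0 to 1 without 1 mouse. The cause of these differences was not tested. Other size factors, filters on low counts and thinning to the smallest library kept every such count within 1.5 times.

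With the replicate number as a block, the counts were 7, 24, 12, 0 and 0 for the comparisons in the order above. Same-numbered mice were different animals, and their deviations from the group means correlated between -0.29 and 0.148. Over the alternatives, no fold change of a named gene that was called reversed, 514 values of the members moved by less than 1 SE and 39 by more. With 2 mice per group and totals down to 2553348, outlying mice could not be tested for and small differences in *Il6*, *Saa2* or *Serpina3k* were not detectable.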
